A study of Mus musculus with 8 samples.

Results

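The genes described here are 44 genes of fatty acid uptake, fatty acid oxidation and ketone metabolism, out of 21887 protein-coding mouse genes. They were chosen by name, with earlier results of these data known, so the shares of all genes set beside them are description and not independent support. A gene was called bound in a peak list when the list held a peak annotated to that gene. The centre of the peak had to lie at most 20 kb from the transcription start site (TSS). By this rule 40 of the 44 genes were bound in at least 1 of the 4 ERRα ChIP-seq lists (90.9%, 95% Wilson interval 78.8 to 96.4), beside 66.8% of all protein-coding genes. The lists came from skeletal muscle and liver of wild-type (WT) mice and of ERRα 3SA mice, which carry a phospho-deficient ERRα mutated at 3 phosphosites of its amino-terminal domain. All mice were males on the C57BL/6N background, 2 to 3 months old and sampled at zeitgeber time 9, and no treatment is named. Gastrocnemius and soleus of 5 mice were pooled for each muscle sample and livers of 2 mice for each liver sample. Each genotype and tissue has 1 library, so no difference between lists has a replicate check and no p-value is given. Intervals on shares cover counting error only.

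Long-chain fatty acids enter the cell with the help of transporters and binding proteins, are activated to acyl-CoA, cross the mitochondrial membranes as carnitine esters and are shortened in the β-oxidation spiral. The spiral passes electrons to the respiratory chain through the electron transfer flavoprotein, and malonyl-CoA restrains the entry step. In liver the acetyl-CoA formed can leave as ketone bodies, which muscle takes up and burns. ERRα is an orphan nuclear receptor known for binding genes of oxidative metabolism. It recognises the ERR response element (ERRE), TCAAGGTCA, in which the core AAGGTCA is preceded by 2 further bases.

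The lists held 25427 peaks in WT muscle, 50647 in 3SA muscle, 21813 in WT liver and 29040 in 3SA liver. Scores were used to rank the peaks of a list. They were otherwise used only in a setting that kept peaks with a score of at least 100 in every list. The exact definition of the score is not given in the sources used here. Counts of different lists under that setting are therefore not on a known common scale. Ranks are printed as a top percent, the rank divided by the number of peaks in the list, so that a small value is a high rank. In muscle 33.6% of the WT peaks and 35.2% of the 3SA peaks shared the lowest score, which puts them together at a top percent of 66.4 and 64.8. The read depth behind the lists was not analysed here. As a check of the tissue labels, 4 of 8 skeletal muscle genes had a peak in the top 5 percent of the WT muscle list and 5 of 8 in the 3SA muscle list, against 0 of 8 in either liver list. By binding at any rank the muscle genes did not separate the tissues, with 5 and 7 of 8 bound in WT and 3SA muscle and 5 and 6 in WT and 3SA liver. None of 8 liver genes had a top 5 percent peak in any list, and the number bound was 2 in WT muscle, 3 in 3SA muscle, 3 in WT liver and 5 in 3SA liver.

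The sequences at the highest-ranked peaks are shown because they carry the receptor's recognition element. Of the 44 genes, 6 had TCAAGGTCA, on either strand, in the 300 bp at the centre of a peak in the top 5 percent of a list. These are shown 5′ to 3′ on the strand of the element, 61 bases each with the element in capitals, from the RefSeq GRCm38 (mm10) genome. The elements lie at chr5:114175671-114175679 (plus strand, an *Acacb* intron), chr4:130307522-130307530 (plus strand, upstream of *Fabp3* in an intron of *Gm10570*), chr11:54303657-54303665 (minus strand, upstream of *Acsl6* in an exon of the non-coding gene *Gm51861*), chr8:119402229-119402237 (plus strand, a *Mlycd* intron), chr9:119142255-119142263 (minus strand, an intron of *Dlec1* downstream of the *Acaa1b* TSS) and chr7:12997095-12997103 (plus strand, a *Slc27a5* intron).
Acacb: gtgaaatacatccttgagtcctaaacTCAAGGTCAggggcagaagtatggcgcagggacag
Fabp3: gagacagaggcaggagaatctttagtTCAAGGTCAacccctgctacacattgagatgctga
Acsl6: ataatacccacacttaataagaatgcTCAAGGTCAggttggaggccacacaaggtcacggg
Mlycd: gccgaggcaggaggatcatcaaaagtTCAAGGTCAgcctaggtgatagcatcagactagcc
Acaa1b: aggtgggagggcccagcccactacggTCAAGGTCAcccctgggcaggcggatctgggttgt
Slc27a5: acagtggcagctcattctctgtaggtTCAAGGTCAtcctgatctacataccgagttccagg
The *Acacb* element lay in the central 300 bp of the peak in all 4 lists, and it was the 1 element of the 44 genes that did. The *Mlycd* and *Slc27a5* elements lie in sequence that the reference genome masks as repeat, and the other 4 do not.

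Several of the highest-ranked peaks lacked TCAAGGTCA at their centre. For these the core AAGGTCA was searched after the values had been seen, and 4 examples are shown in the same way, with the core and the 2 bases before it in capitals. They lie at chr4:130292427-130292435 (minus strand, the distal site upstream of *Fabp3*, in an intron of *Gm10570*), chr9:55511958-55511966 (minus strand, an *Etfa* intron), chr15:89426101-89426109 (plus strand, the *Cpt1b* promoter, in an intron of *Gm44502*) and chr19:3326679-3326687 (minus strand, a *Cpt1a* intron).
Fabp3 distal: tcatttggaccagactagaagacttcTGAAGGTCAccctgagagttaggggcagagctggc
Etfa: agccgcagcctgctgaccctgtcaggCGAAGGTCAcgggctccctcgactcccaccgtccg
Cpt1b: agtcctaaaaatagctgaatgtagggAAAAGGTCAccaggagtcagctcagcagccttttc
Cpt1a: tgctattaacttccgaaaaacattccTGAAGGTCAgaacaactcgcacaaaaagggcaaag
The core AAGGTCA was present at the centre of 26.5% of the peaks of the 44 genes in WT muscle (all peaks within 20 kb of a TSS, 13.8%), 24.6% in 3SA muscle (15.2%), 39.6% in WT liver (35.8%) and 44.4% in 3SA liver (35.5%). The central 300 bp of the *Acadm* promoter peaks of muscle, of the *Eci1* peaks and of the *Cpt1a* peaks nearest the TSS held neither motif, which says only that these letters are not in those windows. At the *Acadm* promoter the cores CGAAGGTCA and TAAAGGTCA lie inside both muscle intervals, outside their central windows. Both cores were in the central window of a WT liver peak there. At the *Cpt1a* site shown, TGAAGGTCA was in the central window of the 3SA liver peak alone. A second core of that site, GCAAGGTCA at chr19:3326790-3326798 (minus strand), was in the central window in both liver lists.

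In WT muscle 29 of the 44 genes were bound (65.9%, interval 51.1 to 78.1), beside 34.5% of all genes. In 3SA muscle 30 were bound (68.2%, 53.4 to 80), beside 48%. In WT liver 28 were bound (63.6%, 48.9 to 76.2), beside 30%, and in 3SA liver 34 (77.3%, 63 to 87.2), beside 37.7%. In each list the interval of the 44 genes lay above the share of all genes, and the smallest gap was in 3SA muscle. The background over the 16272 protein-coding genes named in at least 1 list, at any distance, was 46.5%, 64.5%, 40.3% and 50.7% in the same order, and the interval of the 44 genes then reached below it in 3SA muscle. When the 3SA muscle list was shortened to the length of the WT muscle list, 26 genes were bound against 29 in WT, and within 5 kb of the TSS 22 against 24, so the order of the muscle counts turned. With a score of at least 100 the counts were 12 in 3SA muscle and 6 in WT muscle, where the whole lists kept 2601 and 1185 peaks. Within 50 kb they were 32 and 30.

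**Figure D1:**
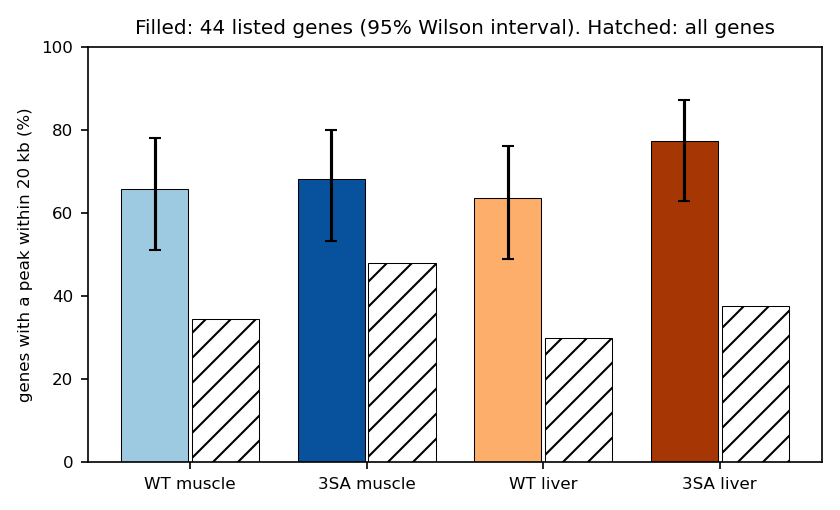
Percent of genes bound in each list (y axis), by a peak at most 20 kb from the TSS. Filled bars are the 44 genes with 95% Wilson intervals for counting error and hatched bars are all 21887 protein-coding genes; the filled bars stand between 63.6% and 77.3% and the hatched bars between 30% and 48%.

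Peaks were also more numerous and ranked higher at the 44 genes. They held 49, 69, 48 and 72 peaks in WT muscle, 3SA muscle, WT liver and 3SA liver, or 1.69, 2.3, 1.71 and 2.12 peaks per bound gene beside 1.5, 1.93, 1.49 and 1.71 over all bound genes. Of these peaks *Fabp3* alone held 6, 8, 2 and 6 in the same order, so the muscle values rest in part on this gene. The median top percent of a gene's best peak was 24.6, 6.59, 21.8 and 15.9, beside 39.1, 23.7, 37.6 and 34 over all bound genes. A peak in the top 5 percent of its list was found at 6 genes in WT muscle (3.15% of all genes had one), at 12 in 3SA muscle (5.5%), at 6 in WT liver (2.7%) and at 7 in 3SA liver (3.49%). *Acacb* and *Etfa* were in this class in all 4 lists. The class also held *Fabp3*, *Acadm*, *Cpt1b* and *Eci1* in WT muscle, these and *Acsl1*, *Acsl6*, *Cpt1a*, *Etfb*, *Mlycd* and *Slc27a1* in 3SA muscle, *Acaa1b*, *Plin5*, *Slc27a5* and *Eci1* in WT liver, and *Acaa1b*, *Plin5*, *Slc27a5*, *Cpt1a* and *Fabp3* in 3SA liver.

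**Figure D2:**
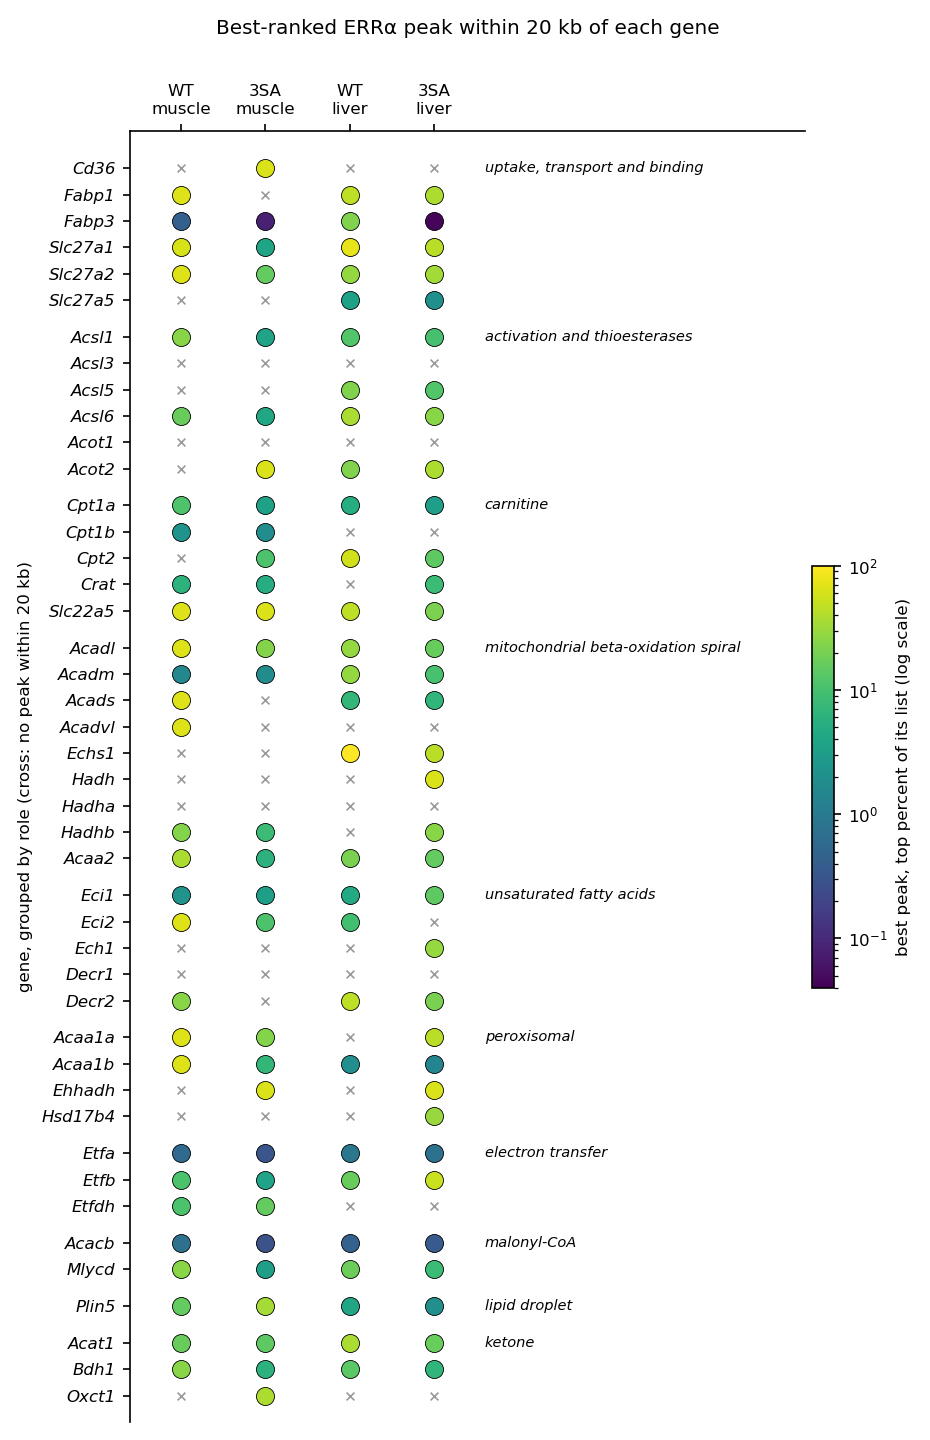
Best-ranked peak within 20 kb of each of the 44 genes (rows, by role) in the 4 lists (columns). Colour gives the top percent of the peak in its list on a log scale, dark for high rank, and a cross marks a gene with no peak; Acacb and Etfa are dark in all 4 columns, Cpt1b is marked in muscle alone and Slc27a5 in liver alone.

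Of the 6 genes of uptake, transport and binding, 4 were bound in each muscle list and 5 in each liver list. Of all genes, 34.5% were bound in WT muscle, 48% in 3SA muscle, 30% in WT liver and 37.7% in 3SA liver. *Fabp3*, the fatty acid-binding protein of heart and skeletal muscle, held more peaks than any other of the 44 genes in both muscle lists, with 6 in WT and 8 in 3SA. Its best peak stood at -16364 bp in WT muscle (rank 108, top percent 0.425) and at -16441 bp in 3SA muscle (rank 41, 0.081). In 3SA liver the same site stood at rank 13 of the whole list (0.0448). In WT liver the interval at this site ranked 20 (0.0917) but was annotated to the neighbouring gene *Serinc2*, whose TSS was closer to its centre, so that the named *Fabp3* peak of that list was a different site at -1944 bp (22.8). The site at chr4:130291178-130292836 was therefore in all 4 lists, and in each it was in the top 0.5 percent.

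Of the other *Fabp3* sites, some were held by muscle alone and some by both tissues. The site upstream of the TSS, at -1326 bp in WT muscle and -1342 bp in 3SA muscle, stood at 2.2 and 1.15 in muscle. The best liver intervals that overlap it stood at 22.8 in WT and 26.9 in 3SA. These WT and 3SA liver intervals share no base with each other. Sites at 4076 and 15158 bp in WT muscle (1.81 and 3.1), or 3625 and 14756 bp in 3SA muscle (1.53 and 0.612), had no liver interval. The site at -9445 bp ranked at 2.47 in 3SA muscle and 24.6 in WT muscle, again with none in liver. A site at 13478 bp was held by 3SA muscle (5.17) and by WT and 3SA liver (57.4 and 18), and not by WT muscle. Sites at -11133 and 19000 bp were held by the 3SA lists of both tissues, at 5.37 and 11 in muscle and at 65 and 80.6 in liver. The annotation places the sites at 13478, 14756 (15158 in WT) and 19000 bp in introns of the transcript NM_153160, not of the *Fabp3* transcript NM_010174.

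*Slc27a5*, a bile acid and very long-chain acyl-CoA synthetase of liver, was bound in liver alone. Its best interval stood at 3.45 in WT liver and 1.98 in 3SA liver, centred 1799 and 1122 bp downstream of the TSS. *Slc27a1*, a fatty acid transporter of muscle and fat, was bound at its TSS in all 4 lists, at 62.4 in WT muscle, 3.86 in 3SA muscle, 75 in WT liver and 44.8 in 3SA liver, so that 3SA muscle stood apart from the others. *Slc27a2* was bound in all 4 lists at 66.4, 15.5, 28.5 and 34, with no site common to both tissues. *Fabp1*, the liver fatty acid-binding protein, was at 66.4 in WT muscle, unbound in 3SA muscle, and at 45.2 and 38.6 in liver, at different positions in the 2 genotypes. *Cd36*, the fatty acid translocase, had 1 peak in any list, at the lowest score of 3SA muscle.

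Among the 6 genes of activation and thioester hydrolysis, 2 were bound in WT muscle (34.5% of all genes) and 3 in 3SA muscle (48%). In each liver list 4 were bound (30% of all genes in WT and 37.7% in 3SA). The muscle counts lie near the shares of all genes. *Acsl6*, a long-chain acyl-CoA synthetase, carried the ERRE shown above, and its promoter stood at 16 in WT muscle, 4.28 in 3SA muscle, 37.6 in WT liver and 24.9 in 3SA liver. *Acsl1*, the main synthetase feeding oxidation in muscle and liver, has annotated starts for the transcripts NM_007981 and, further downstream, NM_001302163. At the downstream TSS it had a peak in 3SA muscle (3.86), WT liver (11.9) and 3SA liver (9.92), and none in WT muscle. At the upstream TSS 3SA liver alone had a promoter peak, at -502 bp (32.8). The best 3SA muscle peak of *Acsl1*, 9239 bp from the upstream TSS (3.75), overlapped an interval near the bottom of the 3SA liver list (80.6). Its WT muscle peak, at -2629 bp from the downstream TSS (24.6), lies downstream of that 3SA muscle peak. *Acsl5* was bound in liver alone, at 22.8 in WT and 11.8 in 3SA. *Acot2*, a mitochondrial thioesterase, had a liver site at -6516 bp (22.8 and 37.9) and a separate 3SA muscle interval at the lowest score. *Acsl3* and *Acot1* were bound in no list.

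Of the carnitine genes, *Cpt1b* had named peaks in muscle alone and *Cpt1a* in every list. *Cpt1b*, the muscle form of the enzyme that commits acyl-CoA to mitochondrial import, was bound at its promoter in WT muscle (-316 bp, rank 559, 2.2) and 3SA muscle (-105 bp, rank 928, 1.83), and had no annotated peak in either liver list. *Cpt1a*, the liver form, was bound within 1 kb of the TSS in all 4 lists, at 11.3 in WT muscle, 3.5 in 3SA muscle, 5.07 in WT liver and 7.02 in 3SA liver. A further *Cpt1a* site, centred at 3529 and 3414 bp in the first intron, was held by both liver lists alone (5.07 and 3.08). Liver thus had 2 high-ranked *Cpt1a* sites and muscle 1. *Crat*, carnitine acetyltransferase, was bound at its promoter in WT muscle (6.07), 3SA muscle (5.17) and 3SA liver (8.39), and no WT liver interval of any gene name lay within 20 kb of its TSS. *Cpt2*, the inner-membrane enzyme, was bound in 3SA muscle (11), WT liver (57) and 3SA liver (14.5). Its liver site, at 3000 bp in 3SA, had TCAAGGTCA at its centre in both genotypes. *Slc22a5*, the carnitine transporter, was bound in all 4 lists at 66.4, 63.6, 45.2 and 21.1.

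Of the 9 genes of the mitochondrial spiral, 6 were bound in WT muscle (34.5% of all genes) and 4 in 3SA muscle (48%). In liver 5 were bound in WT (30%) and 7 in 3SA (37.7%). The 3SA muscle count lies below the share of all genes. *Acadm*, the medium-chain dehydrogenase, led the genes of the spiral in muscle, with its promoter at 1.49 in WT (rank 380) and 1.73 in 3SA (rank 875). The same promoter stood lower in liver, at 28.5 in WT and 10.4 in 3SA. *Acads*, the short-chain dehydrogenase, had the opposite arrangement. It was bound in its first intron in liver (400 bp, 7.1 in WT and 446 bp, 6.79 in 3SA), while muscle held 1 WT interval at -7687 bp with the lowest score. *Acadl*, the long-chain dehydrogenase, had a site near the TSS in WT muscle (66.4), 3SA muscle (23.7) and 3SA liver (33.4), and a site upstream at -8518 bp in 3SA muscle (58.4), WT liver (28.1) and 3SA liver (16.3).

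*Acaa2*, the thiolase that closes the spiral, was bound at its TSS in all 4 lists, at 37.8 in WT muscle, 6.02 in 3SA muscle, 20.7 in WT liver and 15.4 in 3SA liver. *Hadhb*, a subunit of the trifunctional protein, was bound at its TSS in WT muscle (23.2), 3SA muscle (8.2) and 3SA liver (24.9). *Hadha*, the other subunit, starts beside *Hadhb*, and no peak was named for it. The same intervals lie within 1000 bp of the *Hadha* TSS in all 3 of those lists, and the nearest-gene name gave them to *Hadhb*. *Acadvl* had 1 interval, in WT muscle at the lowest score, *Hadh* 1 in 3SA liver (65), and *Echs1* a TSS site in both liver lists (98 and 44.8).

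For the unsaturated fatty acid genes, binding was concentrated at *Eci1*, an isomerase that shifts double bonds. Its intronic site was centred 2987 bp from the TSS in WT muscle (2.2), at 3270 bp in 3SA muscle (3.17), at 3385 bp in WT liver (4.56) and at 3095 bp in 3SA liver (15.3). At this site the 3SA list had the larger top percent in both tissues. *Eci2* was held at 9081 bp in WT muscle (66.4), 9133 bp in 3SA muscle (11) and 8983 bp in WT liver (9.49), and no 3SA liver interval of any gene name lay within 20 kb of it. *Decr2* was bound in WT muscle (24.6), WT liver (45.2) and 3SA liver (20.6), *Ech1* in 3SA liver alone (29.2), and *Decr1* in none.

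Of the 4 genes grouped here as peroxisomal, *Acaa1b*, a thiolase, was bound in all 4 lists. Its leading site lay at 14920 bp in WT liver (rank 415, 1.9) and 14884 bp in 3SA liver (rank 407, 1.4), within an intron of the gene *Dlec1*, and 3SA muscle held an interval there at 7.05. WT muscle had none there, and its 1 *Acaa1b* peak was near the TSS at the lowest score. *Acaa1a* was bound in WT muscle (66.4), 3SA muscle (23.7) and 3SA liver (44.8), *Ehhadh* in 3SA muscle (64.8) and 3SA liver (65), and *Hsd17b4* in 3SA liver (30.1). All 4 genes of this group were bound in 3SA liver (37.7% of all genes) and 1 in WT liver (30%). This contrast depends on the grouping, which gave each gene 1 role and placed *Eci2* and *Decr2* with the unsaturated fatty acid genes. By position *Acaa1a* also had an interval within 20 kb of its TSS in WT liver. None of the intervals of *Acaa1a*, *Ehhadh* and *Hsd17b4* was in the top 20 percent of a list.

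Of the electron transfer flavoprotein genes, *Etfa* stood in the top 1 percent of every list. It encodes the alpha subunit and was bound just downstream of the TSS, at 325 bp in WT muscle (rank 146, 0.574), 366 bp in 3SA muscle (rank 157, 0.31), at 328 bp in WT liver (rank 194, 0.889) and, in the first exon, at 207 bp in 3SA liver (rank 213, 0.733). The CGAAGGTCA shown above lay in the central 300 bp in all 4. *Etfb*, the beta subunit, was bound at its TSS at 10.9 in WT muscle, 3.75 in 3SA muscle, 16 in WT liver and 53.1 in 3SA liver, so that 3SA ranked higher in muscle and lower in liver. *Etfdh*, which passes the electrons to ubiquinone, was bound at its TSS in muscle alone, at 10.9 in WT (282 bp) and 63.6 in 3SA (256 bp), where 3SA had a better-ranked peak at 7273 bp (15.5).

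The malonyl-CoA genes were bound in every list. *Acacb*, the mitochondrial acetyl-CoA carboxylase whose product inhibits CPT1, held its leading site in its first intron at 10268 bp in WT muscle (rank 184, 0.724), 10119 bp in 3SA muscle (rank 144, 0.284), in WT liver at 10234 bp (rank 96, 0.44) and in 3SA liver at 10088 bp (rank 105, 0.362). A second intronic site at 14377, 13808, 14043 and 14396 bp was also in all 4 lists (8.42, 3.75, 8.51 and 11.7), as was an upstream site near -13446 bp (40.2, 22.4, 45.2 and 77.8). A site at 7104 bp was at 0.867 in 3SA muscle, 25.3 in WT liver and 19.3 in 3SA liver, and WT muscle had none. *Mlycd*, which breaks malonyl-CoA down, showed the same arrangement at 7263 bp, with 3.17 in 3SA muscle, 28.5 in WT liver, 33 in 3SA liver and none in WT muscle. Its site near the TSS was in all 4 lists, at 39.1, 38.7, 17.4 and 8.34.

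*Plin5*, a coat protein that tethers lipid droplets to mitochondria, was bound at its TSS in all 4 lists and ranked higher in liver, at 3.96 in WT and 1.98 in 3SA, than in muscle, at 15.2 in WT and 34.9 in 3SA. Among the ketone genes, *Bdh1*, β-hydroxybutyrate dehydrogenase, was bound in all 4 lists at different places. Muscle held sites at 817 bp in WT and 775 bp in 3SA (24.6 and 6.12), and liver a site at -2552 bp in WT and -2664 bp in 3SA (13.5 and 6.66). The muscle and liver distances count from different annotated starts of *Bdh1*, so they do not give the spacing between these sites. *Acat1*, acetoacetyl-CoA thiolase, was bound at its TSS in 3SA muscle (14.3), WT liver (37.6) and 3SA liver (99.5). Its best 3SA liver peak lay at -4259 bp (16.7), and its WT muscle peak at 5120 bp (16). *Oxct1*, the enzyme that lets peripheral tissues use ketone bodies and that liver largely lacks, had 1 peak under its own name, at -116 bp in 3SA muscle (38.7). The adjoining intervals carry the name of the non-coding gene *BC037032*. Of these, the ones centred 1822, 1732 and 1594 bp downstream of the *Oxct1* TSS ranked at 2.13 in 3SA muscle, 5.91 in WT liver and 5.27 in 3SA liver, and WT muscle had 1 at 513 bp with the lowest score.

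**Figure D3:**
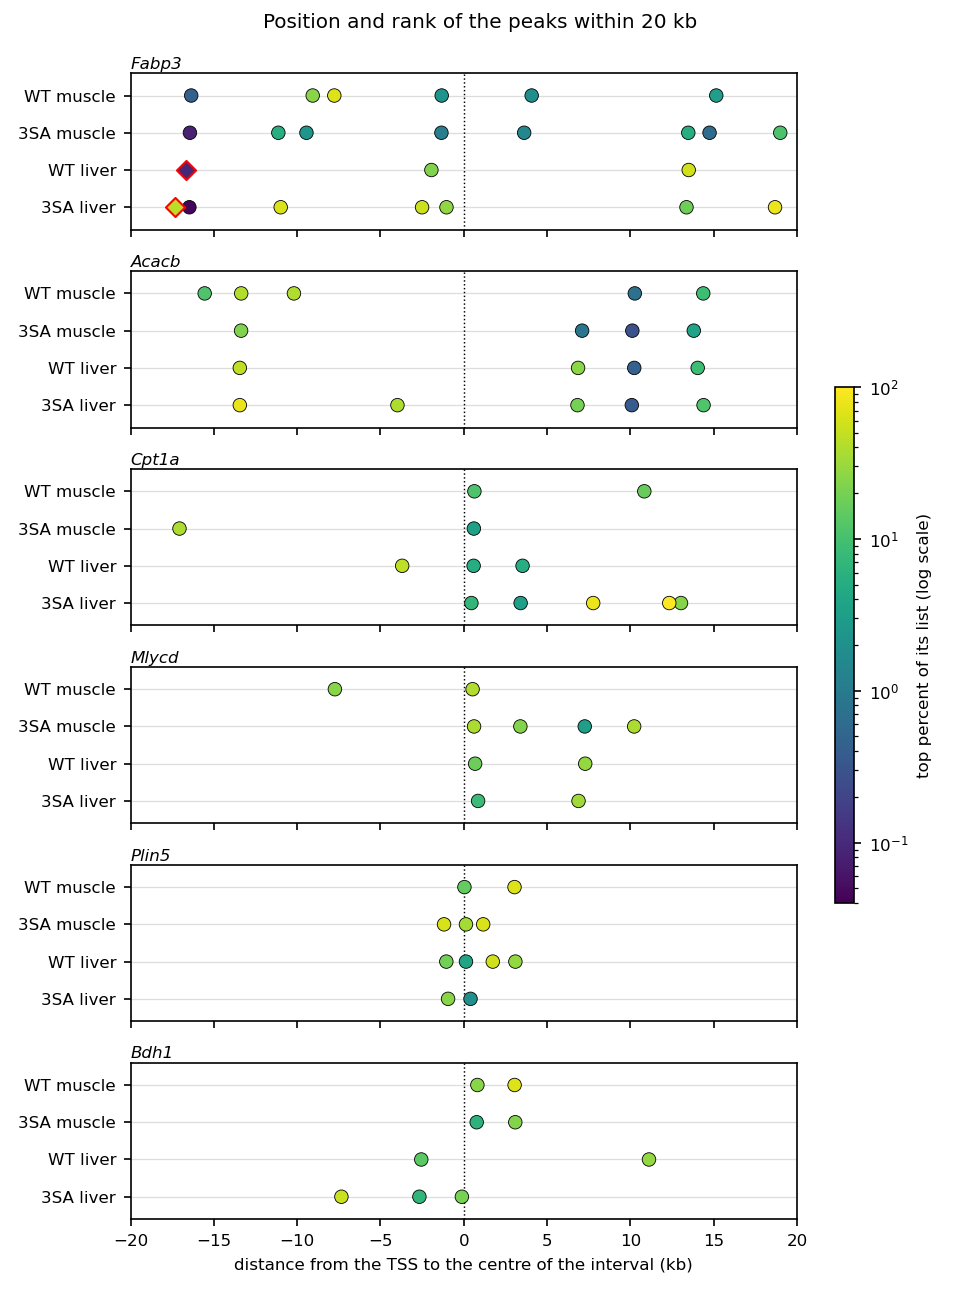
Peaks within 20 kb of 6 of the genes by distance from the TSS in kb (x axis), with 1 row per list and colour for the top percent on a log scale. Distances count from the TSS used in the annotation of each peak, which is not the same for all peaks of Bdh1. Red diamonds at Fabp3 are intervals annotated to Serinc2; the distal Fabp3 site and the Acacb site near 10 kb are dark in all 4 rows, the muscle and liver sites of Bdh1 lie apart, and the second Cpt1a site appears in the liver rows alone.

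Introns held 49%, 55.1%, 54.2% and 54.2% of the peaks of the 44 genes in WT muscle, 3SA muscle, WT liver and 3SA liver, near the 45.7%, 47%, 48.3% and 48.2% of all peaks within 20 kb. Promoter peaks, as the authors' annotation calls them, were at 11 genes in WT muscle (6.23% of all genes), 13 in 3SA muscle (7.61%), 5 in WT liver (5.03%) and 10 in 3SA liver (7.82%). Of the peaks themselves, 22.4% (interval 13 to 35.9) in WT muscle and 18.8% (11.4 to 29.6) in 3SA muscle were promoter peaks, beside 11.9% and 8.18% of all peaks within 20 kb. In liver the shares were 10.4% (4.53 to 22.2) and 13.9% (7.72 to 23.7), beside 11% and 12%, and the intervals include the background. *Acaa2*, *Acadm* and *Acsl6* had a promoter peak in all 4 lists, while *Cpt1b*, *Etfb*, *Etfdh* and *Slc27a1* had one in both muscle lists and in neither liver list. The promoter annotation at *Etfdh* cites a transcript of an adjacent gene. The liver lists held *Etfb* peaks at 214 and 239 bp and *Slc27a1* peaks at 122 and 101 bp that carry other annotation labels, so for these genes the tissues differ by label and not by a peak near the TSS. With promoter peaks taken as those at most 1000 bp from the TSS, the counts were 18, 21, 14 and 19 genes.

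Across genotypes, 25 of the 44 genes were bound in both muscle lists (25.6% of all genes) and 27 in both liver lists (22.7%). In muscle 5 were bound in 3SA alone (22.4%), namely *Acot2*, *Cd36*, *Cpt2*, *Ehhadh* and *Oxct1*, and 4 in WT alone (8.95%), namely *Acads*, *Acadvl*, *Decr2* and *Fabp1*. The order of these muscle counts depended on the setting. With lists of equal length 2 genes were bound in 3SA alone and 5 in WT alone, within 5 kb of the TSS 4 and 6, and with a score of at least 100 there were 6 and 0. That score kept 2601 peaks in 3SA muscle and 1185 in WT muscle. Of the 9 genes, 6 had nothing but lowest-score intervals, and the best of the others was *Cpt2* at 11. In liver 7 were bound in 3SA alone (15%), namely *Acaa1a*, *Crat*, *Ech1*, *Ehhadh*, *Hadh*, *Hadhb* and *Hsd17b4*, and *Eci2* in WT alone (7.29%). The share of 3SA-alone genes was 11.4% (interval 4.95 to 24) in muscle and 15.9% (7.93 to 29.4) in liver, and both intervals include the background. A peak with its centre within 300 bp in the other genotype was found at 17 genes in muscle (10.4% of all genes) and 24 in liver (17.3%). All 4 lists bound 19 of the genes (12.5%), and 13 of these had such a shared peak in both tissues, namely *Acaa2*, *Acacb*, *Acadl*, *Acadm*, *Acsl6*, *Bdh1*, *Cpt1a*, *Eci1*, *Etfa*, *Etfb*, *Fabp3*, *Mlycd* and *Plin5*. The other 6 were *Acaa1b*, *Acat1*, *Acsl1*, *Slc22a5*, *Slc27a1* and *Slc27a2*.

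By top percent, the best peak ranked higher in 3SA at most of the genes bound in both lists, as it did over all genes. In muscle the best peak had a smaller top percent in 3SA at 21 of 25 genes (84%, beside 70.8% of all genes bound in both lists), and in liver at 23 of 27 (85.2%, beside 63.9%). Because a longer list makes top percents smaller, the plain rank was also compared, and it was smaller in 3SA at 16 of 25 genes in muscle (64%, beside 34.8%) and at 18 of 27 in liver (66.7%, beside 45.2%). Plain rank leans the other way, since a longer list can place more peaks ahead of a given one. The exceptions by top percent were *Acadm*, *Eci1*, *Etfdh* and *Plin5* in muscle and *Acot2*, *Eci1*, *Etfb* and *Slc27a2* in liver, and by plain rank there were 9 in each tissue. In WT muscle 9 genes had their best peak at the lowest score, against 3 in 3SA muscle and 0 in either liver list. The lowest score stands at 66.4 in WT muscle and 64.8 in 3SA muscle. Those of the 9 genes with a 3SA muscle peak therefore had a smaller top percent there whatever its rank. They are *Acaa1a*, *Acaa1b*, *Acadl*, *Eci2*, *Slc22a5* and *Slc27a2*, and all are among the 21 genes. Examples in muscle were *Slc27a1*, from 62.4 in WT to 3.86 in 3SA, and *Acaa2*, from 37.8 to 6.02. The shift of *Fabp3* in liver, from 22.8 to 0.0448, came with the change in gene name of the distal interval, and with that interval counted it was from 0.0917. With 1 list per genotype, a difference in library depth or enrichment and a difference in binding cannot be told apart.

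**Figure D4:**
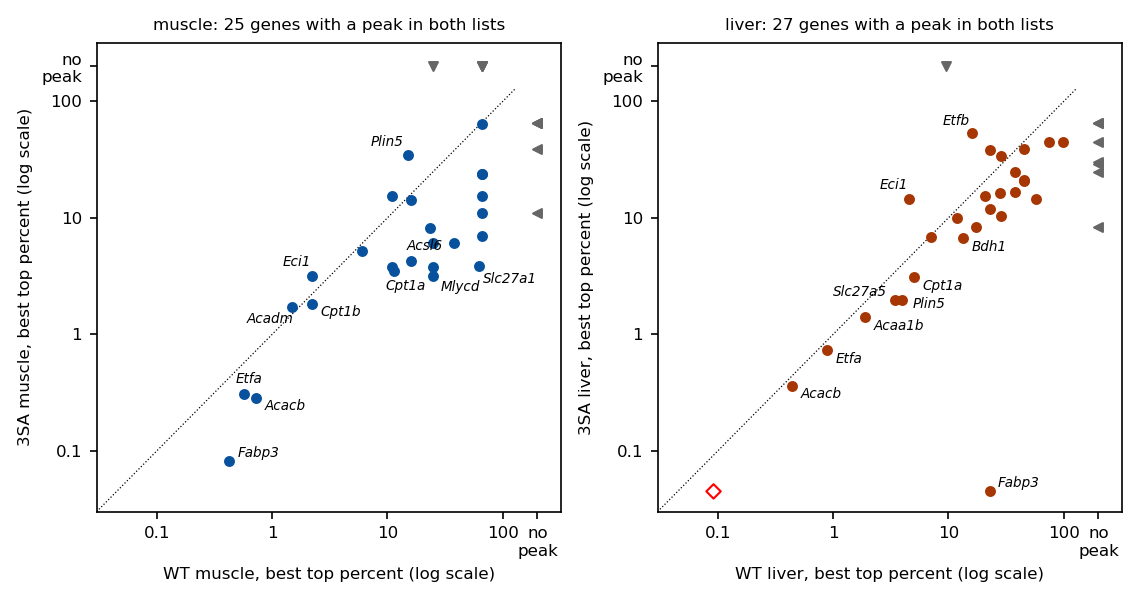
Best top percent of each gene in WT (x axis) against 3SA (y axis), log scales, for muscle (left) and liver (right). The dotted line marks equal values, grey triangles are genes with no peak in the other genotype, and the red diamond is Fabp3 in liver when the interval named Serinc2 is counted; 21 of 25 points in muscle and 23 of 27 in liver lie under the line.

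Between tissues, by gene name, 5 genes were bound in muscle and in no liver list (21.8% of all genes), namely *Acadvl*, *Cd36*, *Cpt1b*, *Etfdh* and *Oxct1*. Conversely, 6 were bound in liver and in no muscle list (9.83%), namely *Acsl5*, *Ech1*, *Echs1*, *Hadh*, *Hsd17b4* and *Slc27a5*. Of the 11 genes, *Cpt1b* and *Slc27a5* alone had a named peak in the top 10 percent of a list. Counted by position, with any interval within 20 kb of the TSS, 8 of the 11 calls were lost, and *Cd36*, *Etfdh* and *Hsd17b4* kept theirs. When intervals of any list sharing at least 1 base were joined, the 40 bound genes held 133 sites. Muscle alone held 50 of them, liver alone 45, and both tissues 38. Joining runs in a chain, so intervals of different lists at a site need not share a base with each other. The WT and 3SA liver intervals at the *Fabp3* site just upstream of the TSS do not, nor do the WT muscle and WT liver intervals at *Oxct1*. In all 4 lists, whatever gene the intervals were named for, there were 16 sites at 13 genes, which is 12% of the sites of the 44 genes beside 3.74% of all sites in the genome. These 13 genes include *Oxct1*, through the intervals named *BC037032*, and *Slc27a1*, and not *Acadl* and *Bdh1*, so they are not the 13 genes with a shared peak in both tissues. Sites in 1 list made up 56.4%, beside 77.4%. Both muscle lists and no liver list shared 8 sites, and both liver lists and no muscle list 12. A group of 8 sites was in 3SA muscle and both liver lists but not in WT muscle. Among them were the *Acacb* site at 7104 bp, the *Mlycd* site at 7263 bp, the leading *Acaa1b* site and the downstream *Acsl1* TSS. In turn, 2 sites were in WT muscle and both liver lists but not in 3SA muscle, beside the unequal lengths of the muscle lists.

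TCAAGGTCA at the centre of a peak was found at 4 genes in WT muscle (2.16% of all genes), 4 in 3SA muscle (4.25%), 7 in WT liver (6.31%) and 10 in 3SA liver (8.75%). By peak, the share was 8.16% (interval 3.22 to 19.2), 5.8% (2.28 to 14), 18.8% (10.2 to 31.9) and 15.3% (8.75 to 25.3), beside 4.45%, 4.84%, 15.1% and 14.9% of all peaks within 20 kb, and each interval includes its background. Of all 32851 RefSeq promoters, as windows of 300 bases, 0.423% hold the element. Counted once each, 16 elements lay at 12 of the genes, and 6 of the 16 were in repeat-masked sequence, where 40.1% (WT muscle) to 52.3% (WT liver) of the elements at all peaks within 20 kb lie. The element was at 5.33% of the sites held by 1 list, 11.1% by 2, 26.7% by 3 and 25% by 4, beside 3.72%, 17.1%, 28.7% and 31.2% of all sites. A direct repeat of AGGTCA after a spacer of 1 base, the motif of PPAR receptors, was at 1 peak, an *Acaa1b* interval in 3SA liver, and at 0.168% of all peaks of that list within 20 kb.

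**Figure D5:**
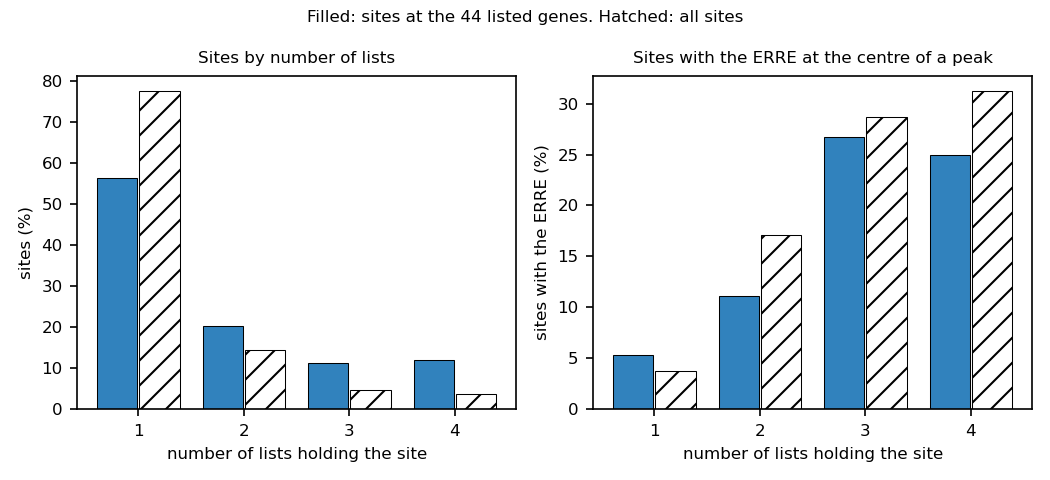
Left, percent of sites (y axis) by the number of lists that hold them (x axis); right, percent of those sites with TCAAGGTCA at the centre of a peak. Filled bars are the 133 sites of the 44 genes and hatched bars all sites in the genome; 12% of the filled sites and 3.74% of all sites are in 4 lists.

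Counting by position rather than by gene name changed some calls. With any interval within 20 kb of a RefSeq TSS of the gene, whatever gene it was named for, 34 of the 44 genes had one in WT muscle (48% of all genes), 40 in 3SA muscle (61.8%), 33 in WT liver (42.8%) and 39 in 3SA liver (50.9%). Within 1000 bp of a TSS the counts were 20 (15.6%), 22 (18.1%), 14 (10.6%) and 21 (16.2%). Of the 4 genes without a named peak, *Hadha* gained an interval in WT muscle, 3SA muscle and 3SA liver, *Acot1* and *Decr1* in 3SA muscle, and *Acsl3* in 3SA liver. *Oxct1* gained one in WT muscle and both liver lists, *Acadvl* in 3SA muscle and both liver lists, and *Cpt1b* in both liver lists, though none lay within 1000 bp of the *Cpt1b* TSS there. *Acsl5*, *Echs1* and *Slc27a5* gained one in both muscle lists, *Acads* and *Hadh* in 3SA muscle, *Ech1* in 3SA muscle and WT liver, and *Acaa1a* in WT liver. By position *Decr2* and *Fabp1* were left as WT alone in muscle, *Oxct1* was no longer 3SA alone in muscle, and *Acaa1a* and *Ech1* were no longer 3SA alone in liver. The calls 3SA alone then numbered 8 in muscle and 7 in liver.

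Among 22 other genes of the pathway, 12 were bound in WT muscle (34.5% of all genes), 12 in 3SA muscle (48%), 14 in WT liver (30%) and 13 in 3SA liver (37.7%). *Ppara*, the fatty acid-sensing nuclear receptor, was bound in all 4 lists at 4.16 in WT muscle, 1.45 in 3SA muscle, 2.9 in WT liver and 2.04 in 3SA liver. *Pdk4*, the kinase that turns pyruvate dehydrogenase off when fat is burned, was bound within 1 kb upstream of its TSS at 3.35, 1.83, 6.71 and 4.33. *Pnpla2*, the triglyceride lipase ATGL, stood at 4.66, 15.1, 12.7 and 6.79, and *Ucp3*, a mitochondrial carrier of muscle, at 37.2, 4.73, 75 and 43.9. *Acad9*, *Acad10*, *Acadsb*, *Acsl4* and *Fabp4* were bound in none.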

How the data were processed

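The authors trimmed the paired-end reads (Trimmomatic 0.36) and aligned them against mm10 (BWA 0.7.12), keeping unique alignments and removing duplicates (Picard 2.0.1). They called peaks against input DNA with MACS2 2.1.1.20160309, filtered them by false discovery rate, dropped mitochondrial and scaffold peaks and annotated the rest with HOMER 4.9.1 (versions per the submitters' processing notes and the study's methods). The deposited lists give each peak a score, the peak caller's number against input, at least 30 here, whose exact definition is not given in the sources used here. The deposited distance to the TSS is in bp, and the deposited GC content is a fraction of the interval. For a gene with several annotated starts, the distances of its peaks can count from different TSSs. The 4 input samples hold no values used here. Libraries were made from pooled animals, and the methods and the labels differ on how many immunoprecipitations were combined.

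Start positions were 1-based: the GC content recomputed from GRCm38 patch 6 equalled the deposited fraction, within rounding, for 1000 of 1000 peaks checked per list. Ranks took the smallest rank for ties. Motifs were searched on both strands in the 300 bp at the interval centre, peaks were shared when centres lay within 300 bp, and repeats are those soft-masked in the RefSeq genome. Background shares are over 21887 RefSeq protein-coding genes. No test was run, since each group has 1 library. Python 3.11.15, pandas 2.3.3, scipy 1.17.1 (Wilson intervals), pysam 0.24.0, samtools 1.23.1 and matplotlib 3.10.9 were used, and the overlap and motif functions were tested on simulated intervals.

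The 44 genes, their roles, the 22 other pathway genes and the markers were chosen with earlier results of these data known. Every one of the 44 genes is named. Full values go to the 10 smallest top percents per tissue, to genes bound in all 4 lists with a shared peak in both tissues, and to genes in the top 10 percent of a list in 1 genotype with no peak in the other. Sequences go to genes with TCAAGGTCA at a peak in the top 5 percent, except on chromosomes not shown here, and other pathway genes are named when they reach the top 5 percent, with some not reported here. The AAGGTCA sequences, the counts by position, the plain rank comparison and the remaining named genes were chosen after the values were seen.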

Additional observations from a re-analysis of the deposited data

How the results depend on the processing

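A score of at least 100 in every list moved 17 of 20 counts by more than 1.5 times. It kept 1185 peaks in WT muscle, 2601 in 3SA muscle, 3770 in WT liver and 5971 in 3SA liver. With it, the genes bound were 6 in WT muscle, 12 in 3SA muscle, 12 in WT liver and 19 in 3SA liver, those with a peak shared between genotypes 6 in muscle and 10 in liver, and those with TCAAGGTCA at a peak 2 in WT muscle, 2 in WT liver and 6 in 3SA liver. Within 5 kb of the TSS, the genes with TCAAGGTCA were 2 in 3SA muscle and 4 in WT liver. Counted by any interval within 1000 bp of a RefSeq TSS, a choice made after seeing the data, 14 genes were bound in WT liver and 21 in 3SA liver. With lists of equal length 2 genes, not 5, were bound in 3SA muscle alone, and 19 other counts stayed within 1.5 times. A limit of 50 kb to the TSS, centres within 1000 bp, 1 shared base, TNAAGGTCA, the motif in the whole interval and any interval within 20 kb moved none of their counts by more than 1.5 times. No paired analysis was possible because each genotype and tissue has 1 library. Ties at the lowest score leave the order of 33.6% of the WT and 35.2% of the 3SA muscle list unresolved, the reads were not analysed here, and the nearest-gene name can change between lists for 1 site.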
